A study of Mus musculus with 5 samples.

Results

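The genes described here are 10 of the 35275 in the deposited table, taken by name: the feedback inhibitors Socs1, Socs2, Socs3 and Cish, the Janus kinases Jak1 and Jak3, and the transcription factors Stat3, Stat4, Stat5a and Stat5b. All 10 had reads in every library and all 10 passed the filter on low values. The libraries were made from RNA of T cells sorted from the spleens of 3-month-old wild-type C57BL/6 mice after CD8 enrichment. There was 1 library of CD8 Treg cells (CD8+ regulatory T cells), 2 of CD4 Treg cells (CD4+ regulatory T cells) and 2 of cells labelled CD49lo, which are the CD8+ effector-like population of the design only by elimination. The labels give no genetic modification and no treatment for any group. They do not state the sort markers, the sex of the mice or whether replicates came from separate animals, so a p-value here reflects variation among these libraries, which could be technical alone.

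Cytokine receptors that lack a kinase of their own signal through Janus kinases bound to their tails. The kinases phosphorylate the receptor and then the STAT proteins, which pair, enter the nucleus and bind DNA. JAK1 and JAK3 serve the receptors that share the common gamma chain, among them those of IL-2, IL-4, IL-7, IL-15 and IL-21. STAT5A and STAT5B carry most of the IL-2, IL-7 and IL-15 signal, STAT3 that of IL-6, IL-10 and IL-21, and STAT4 that of IL-12. CIS (encoded by Cish) and the SOCS proteins are induced by STATs and dampen the same pathway, by occupying receptor sites, by blocking the kinase (SOCS1 and SOCS3) or by directing components to degradation. In CD4 regulatory T cells the IL-2 receptor and STAT5 are known to maintain Foxp3.

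Promoter sequences are shown for Cish and Socs3 because they are the members whose windows held the STAT binding motif TTCNNNGAA, which reads the same on both strands. Each window is the 300 bases from 250 before to 50 after a RefSeq start of transcription (GRCm38.p6, the same assembly as mm10), printed 5′ to 3′ on the gene's strand with motif matches in capitals. The Cish window is chr9:107296409-107296708 (plus strand) and the Socs3 window is chr11:117969317-117969616 (minus strand). Both windows lie wholly inside the gene bounds given below for these genes. The bases upstream of those bounds were therefore not searched.
Cish: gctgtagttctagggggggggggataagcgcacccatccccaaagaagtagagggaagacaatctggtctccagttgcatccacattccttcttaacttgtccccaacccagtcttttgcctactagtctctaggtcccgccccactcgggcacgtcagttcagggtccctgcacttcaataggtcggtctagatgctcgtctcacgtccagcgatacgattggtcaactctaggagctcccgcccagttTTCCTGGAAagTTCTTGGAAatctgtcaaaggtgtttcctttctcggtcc
Socs3: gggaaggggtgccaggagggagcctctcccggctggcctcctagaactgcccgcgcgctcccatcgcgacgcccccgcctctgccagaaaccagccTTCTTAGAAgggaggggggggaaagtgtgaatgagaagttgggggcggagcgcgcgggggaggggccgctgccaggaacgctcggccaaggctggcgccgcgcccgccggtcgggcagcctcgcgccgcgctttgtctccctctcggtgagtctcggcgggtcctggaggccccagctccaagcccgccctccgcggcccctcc

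The Cish window held 2 matches, at offsets 0 and 11 from the RefSeq start, and the Socs3 window held 1, at offset -154 from its own. Promoter windows were found for 9 of the 10 genes, 12 windows in all, and Socs2 was the gene without one. The windows of Socs1, Jak1, Jak3, Stat3, Stat4, Stat5a and Stat5b held no match. Those of Stat5a also lay wholly inside its gene bounds, as did those at start 2 of Stat4 and Stat5b. The bases upstream of the Stat5a bounds were therefore not searched. Of all 32851 windows on named chromosomes in the same table, 8.30% held at least 1 match and 0.457% at least 2. A match describes these letters and was not tested as a binding site.

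**Figure D1:**
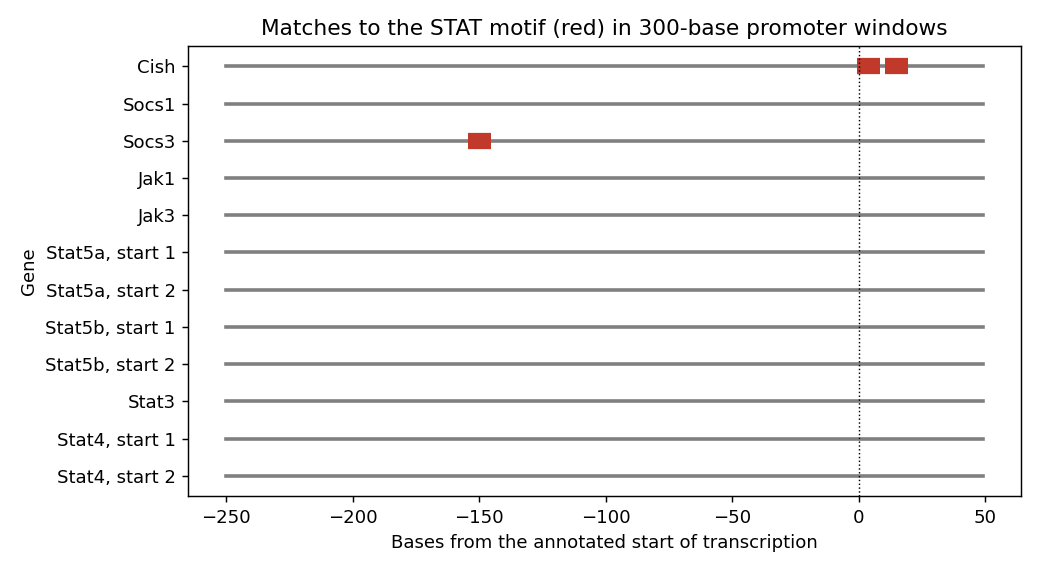
Position of each match to the STAT motif (red) in the 300-base window around each annotated start of transcription (grey line, x axis in bases from the start, dotted line at 0), with 1 row per start. Cish held 2 matches just after its RefSeq start and Socs3 held 1 at offset -154 from its own. Both of these starts lie inside the gene bounds of the deposited table. The other windows held none, and those of Stat5a also lie wholly inside its gene bounds.

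The libraries held between 5441444 and 8354971 reads in genes, recovered from the deposited RPKM values (reads scaled to gene length in kilobases and to library depth). The sort genes followed the labels. Foxp3, the transcription factor that defines CD4 regulatory T cells, was at 0.387 RPKM in CD8 Treg, 146 and 146 RPKM in the CD4 Treg libraries, and 1.66 and 0.795 RPKM in CD49lo. Cd8a was at 187 RPKM in CD8 Treg, 0.412 and 0.352 RPKM in CD4 Treg, and 215 and 255 RPKM in CD49lo, while Cd3e was at 302 to 402 RPKM in all 5 libraries. Transcripts listed here as markers of other cell types moved with the groups. The 8 B cell markers summed to 435 RPKM in CD8 Treg, 59.9 and 60.9 RPKM in CD4 Treg, and 888 and 970 RPKM in CD49lo, with Ebf1 at 0 in CD4 Treg replicate 1 and Blk at 0 in replicate 2. The 8 monocyte, macrophage and neutrophil markers summed to 262 RPKM in CD8 Treg, 15.3 and 3.54 RPKM in CD4 Treg, and 523 and 469 RPKM in CD49lo, with Itgam, S100a8, S100a9 and Cd14 at 0 in CD4 Treg replicate 2. In CD4 Treg all 8 B cell, all 8 myeloid and all 6 NK cell markers were called lower than in CD49lo, and in CD8 Treg 1 of each list was. The 6 NK cell markers summed to 233 RPKM in CD8 Treg, 8.63 and 3.35 RPKM in CD4 Treg, and 502 and 1779 RPKM in CD49lo, with Ncr1 at 0 in both CD4 Treg libraries. Gzma made up most of the CD49lo sums, at 304 and 1580 RPKM, against 56.4 RPKM in CD8 Treg. Tyrobp and Fcer1g were also lower in CD8 Treg than in both CD49lo libraries, and Klrb1c lay between them. Ncr1 and Eomes were instead highest in CD8 Treg, at 18.8 and 82.4 RPKM. The 6 dendritic cell markers summed to at most 43.4 RPKM, lowest in CD4 Treg and highest in CD49lo, and the 6 red cell and platelet markers to at most 47.2 RPKM in any library. Xist, the RNA that silences the extra X of females, was at 0.0834 RPKM in CD8 Treg, 35.5 and 27.2 RPKM in CD4 Treg, and 0.0269 and 0 RPKM in CD49lo. Sex therefore coincided with the CD4 Treg group and cannot be told apart from it. Whether these transcripts, the NK cell markers among them, came from other cells or from the sorted T cells themselves was not tested. The part of these cell types in the results below was not tested either. In such bulk libraries, fewer cells of a type and less RNA per cell cannot be told apart.

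In both comparisons with CD4 Treg, the SOCS family genes had the 4 largest log2 fold changes of the 10. All 4 were lower in CD8 Treg than in CD4 Treg and higher in CD4 Treg than in CD49lo, while in CD8 Treg over CD49lo Cish fell, Socs3 rose, and Socs1 and Socs2 did not pass. Stat4 was higher in CD8 Treg than in both other groups. In all, 2 of the 10 genes were higher and 1 was lower in CD8 Treg than in CD49lo, where 5.34% of all 13298 genes tested were called (1.73% higher and 3.61% lower). That split moved with the scaling: 32.4% of the calls were higher with the trimmed mean factors and 20.6% without a scaling factor, where the 10 genes gave 1 higher (Socs3) and 2 lower (Cish and Socs2). Between CD8 Treg and CD4 Treg, 2 of the 10 were higher and 7 lower in CD8 Treg, against 16.9% of all genes called (8.51% higher and 8.35% lower). For CD4 Treg over CD49lo the counts were 8 higher and 0 lower, against 22.3% of all genes called (9.45% higher and 12.8% lower). The libraries of the compared groups did not overlap for 8 of the 10 in CD8 Treg against CD49lo (74.9% of all genes), 10 of the 10 in CD8 Treg against CD4 Treg (81.4%) and 9 of the 10 in CD4 Treg against CD49lo (60.2%), shares that are high everywhere with so few libraries. The shares of all genes were taken with the trimmed mean factors applied. The counts of the 10 are the same with or without them, but in CD8 Treg against CD49lo Jak3 and Stat5b trade places. The median log2 fold change over all genes tested was -0.04 in CD8 Treg over CD49lo, 0.02 in CD8 Treg over CD4 Treg and -0.03 in CD4 Treg over CD49lo. The comparisons share libraries and are not independent.

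The calls depended on replication. Refitted with 1 replicated library left out at a time, CD8 Treg against CD49lo gave 0 calls among the 10 each time, although 5 or 6 had an unadjusted p under 0.05, and over all genes it gave 0 to 200 calls against 710 with all libraries. CD8 Treg against CD4 Treg kept 6 of the 10 when CD4 Treg replicate 1 was dropped (Socs1, Socs2, Socs3, Cish, Stat4 and Stat5b), 5 when CD4 Treg replicate 2 was dropped (the same but for Stat4), and 1, Cish, when either CD49lo library was dropped. CD4 Treg against CD49lo kept Socs1, Socs2, Socs3, Cish and Stat5b when either CD4 Treg library was dropped, Socs1, Socs3 and Stat5b when CD49lo replicate 1 was dropped, and Socs1 and Socs3 when CD49lo replicate 2 was dropped. Such fits have 1 residual degree of freedom, against 2 with all libraries.

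**Figure D2:**
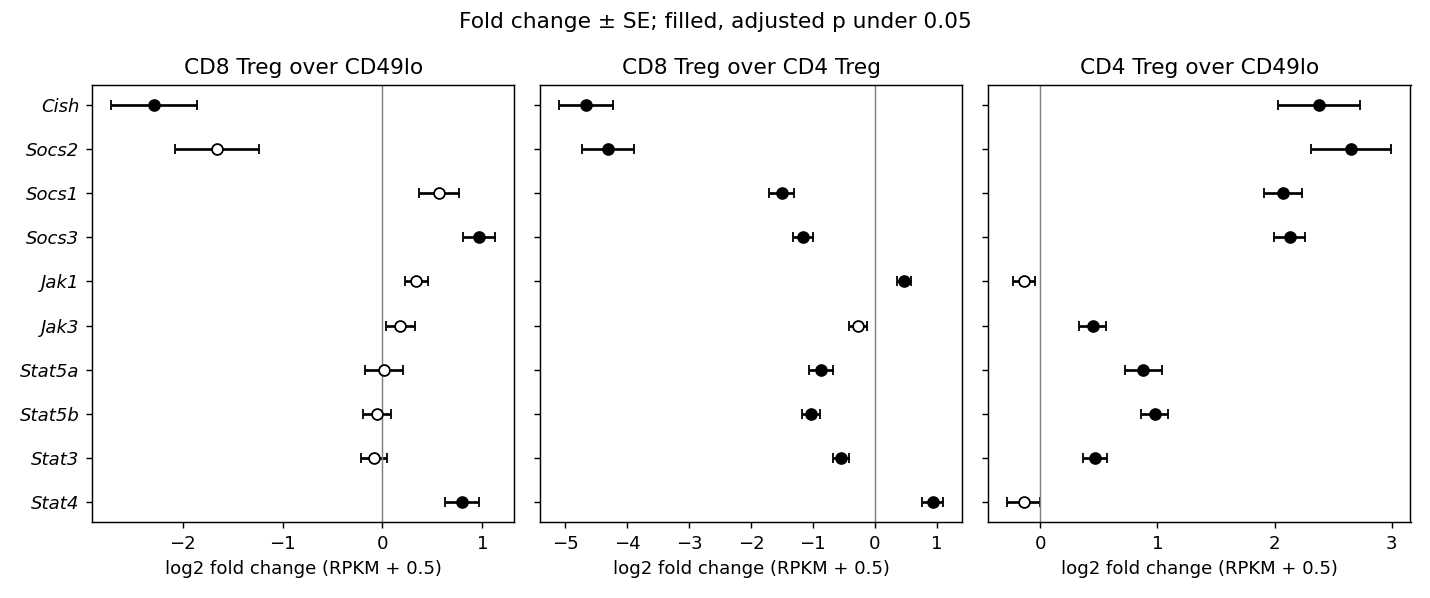
Log2 fold change of each gene (x axis, on RPKM + 0.5; bars ± SE) in CD8 Treg over CD49lo, CD8 Treg over CD4 Treg and CD4 Treg over CD49lo; filled points have an adjusted p under 0.05. All 4 SOCS family genes were lower in CD8 Treg than in CD4 Treg and higher in CD4 Treg than in CD49lo, while in CD8 Treg over CD49lo Cish was lower and Socs3 and Stat4 were higher.

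CIS and SOCS2, the inhibitors classically induced by STAT5, were nearly absent from CD8 Treg at the RNA level and were highest in CD4 Treg. Cish (ENSMUSG00000032578, mm10 chromosome 9, 107296026 to 107302784) had 0.491 RPKM in CD8 Treg, 28.0 and 23.6 RPKM in CD4 Treg, and 2.78 and 7.49 RPKM in CD49lo. These values rest on 14 reads in CD8 Treg, 817 and 602 reads in CD4 Treg, and 109 and 231 reads in CD49lo. The 3 groups did not overlap, and the CD49lo libraries differed from each other by more than their counting error, with 95% exact Poisson intervals of 2.28 to 3.35 and 6.56 to 8.52 RPKM. Cish fell in CD8 Treg relative to CD49lo by 2.29 ± 0.43 on the log2 scale of RPKM + 0.5 (± SE here and below; adjusted p = 0.0165) and relative to CD4 Treg by 4.67 ± 0.43 (adjusted p = 0.00012). It was higher in CD4 Treg than in CD49lo by 2.38 ± 0.35 (adjusted p = 0.00112). That call was lost when either CD49lo library was dropped, with a log2 fold change of 1.76 when it was replicate 1 and 3.01 when it was replicate 2. The added 0.5 understates the change of so low a gene: in reads per depth, CD8 Treg held 0.101 times the CD49lo level (95% exact interval 0.0547 to 0.172, counting error only) and 0.0189 times the CD4 Treg level (0.0103 to 0.0318). The call against CD49lo was lost by limma-voom (adjusted p = 0.177) and in each fit without 1 library, where the log2 fold change ran between -2.91 (without CD49lo replicate 1) and -1.66 (without CD49lo replicate 2).

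Socs2 (ENSMUSG00000020027, chromosome 10, 95385362 to 95417180), which restrains growth hormone and STAT5 signalling, had the same order of groups. It had 0.0388 RPKM in CD8 Treg, which is 1 read, at 10.5 and 10.1 RPKM (277 and 234 reads) in CD4 Treg, and at 0.931 and 1.62 RPKM (33 and 45 reads) in CD49lo. No 2 groups overlapped. Socs2 fell in CD8 Treg relative to CD4 Treg by 4.31 ± 0.42 (adjusted p = 0.00016) and was higher in CD4 Treg than in CD49lo by 2.65 ± 0.34 (adjusted p = 0.000501); both calls were lost when either CD49lo library was dropped. Its log2 fold change in CD8 Treg over CD49lo was -1.66 ± 0.42 (adjusted p = 0.0562), which did not pass. Of 14 alternatives 3 called it: it was -3.20 with a pseudocount of 0.1 RPKM (adjusted p = 0.00816) and -1.09 with a pseudocount of 1 RPKM (adjusted p = 0.13), and the adjusted p was 0.307 by limma-voom and up to 0.27 in the fits without 1 library. The ratio of reads per depth was 0.0315 in CD8 Treg over CD49lo (95% exact interval 0.000787 to 0.181) and 0.00375 over CD4 Treg (9.48e-05 to 0.021). The antisense transcript Gm17041 and the pseudogene Gm17040 overlap Cish on the other strand and reached at most 3.45 RPKM, and no annotated gene in the table overlaps Socs2. The strand setting of the authors' counting is not given in the sources used here.

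Socs1 and Socs3, whose proteins block the kinases directly, followed another order, with CD8 Treg between the other groups. Socs1 (ENSMUSG00000038037, chromosome 16, 10783808 to 10785536) is induced by interferons and common gamma chain cytokines. It had 22.4 RPKM in CD8 Treg, 71.0 and 67.8 RPKM in CD4 Treg, and 16.0 and 16.9 RPKM in CD49lo. Socs3 (ENSMUSG00000053113, chromosome 11, 117966079 to 117970047) is the main inhibitor of signalling through the IL-6 receptor chain gp130. It had 41.8 RPKM in CD8 Treg, 105 and 98.2 RPKM in CD4 Treg, and 25.0 and 21.5 RPKM in CD49lo. Neither gene overlapped between groups. Socs3 was higher in CD8 Treg than in CD49lo by 0.97 ± 0.16 (adjusted p = 0.00927), a fold of 1.96, and the Socs1 difference of 0.57 ± 0.20 did not pass (adjusted p = 0.157). Relative to CD4 Treg, CD8 Treg fell by 1.16 ± 0.16 for Socs3 (adjusted p = 0.00121) and by 1.50 ± 0.20 for Socs1 (adjusted p = 0.000992), both lost when either CD49lo library was dropped. In CD4 Treg over CD49lo the rise was 2.13 ± 0.13 for Socs3 (adjusted p = 7.05e-06) and 2.07 ± 0.16 for Socs1 (adjusted p = 3.01e-05), and both calls held in all 4 fits without 1 library. The call of Socs3 against CD49lo in CD8 Treg was lost in each fit without 1 of the 4 replicated libraries (log2 fold change 0.84 to 1.10, adjusted p up to 0.213). Immediate early genes, which respond to activation and cell handling, moved with Socs1 and Socs3 in CD4 Treg: 10 of 12 were higher than in CD49lo, among them the phosphatase gene Dusp1 at 73.0 and 66.8 RPKM in CD4 Treg and 7.61 and 6.26 RPKM in CD49lo. Against CD49lo, CD8 Treg had 0 of the 12 higher and 1 lower, Nr4a1, and against CD4 Treg 0 higher and 9 lower. Over all genes 22.3% were called in CD4 Treg against CD49lo, 5.34% in CD8 Treg against CD49lo and 16.9% in CD8 Treg against CD4 Treg. The part of the immediate early genes in the result was not tested.

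**Figure D3:**
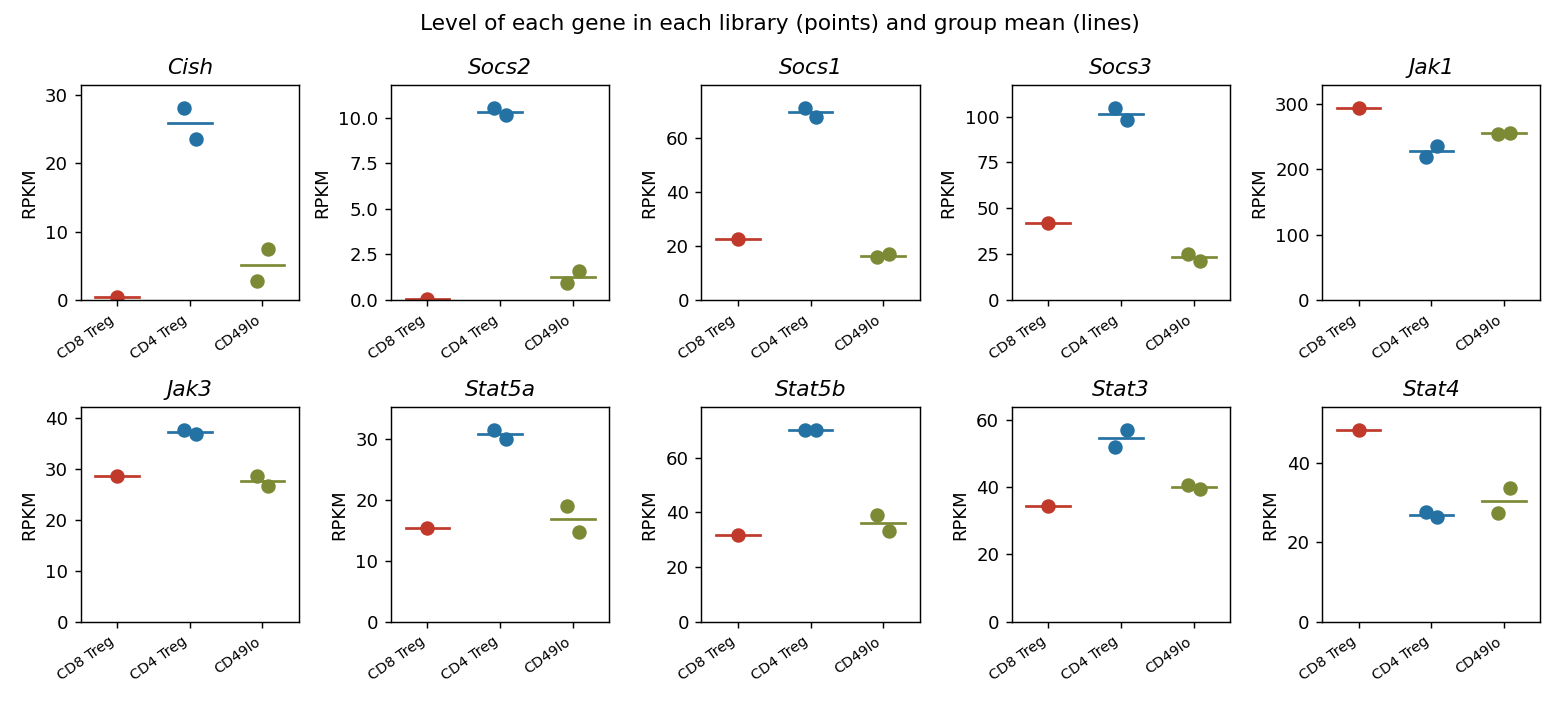
Level of each of the 10 genes in RPKM (y axis from 0, a scale of its own in each panel) in the CD8 Treg library, the 2 CD4 Treg libraries and the 2 CD49lo libraries (points), with the group mean as a line. Cish and Socs2 sit near 0 in CD8 Treg, Socs1 and Socs3 lie between the other groups there, and Stat4 and Jak1 are highest in CD8 Treg.

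The kinases varied little. Jak1 (ENSMUSG00000028530, chromosome 4, 101152367 to 101265282) was the most abundant of the 10 genes in every library, at 294 RPKM in CD8 Treg, 218 and 236 RPKM in CD4 Treg, and 254 and 255 RPKM in CD49lo. CD8 Treg was above all other libraries, and CD4 Treg below all others. Jak1 was higher in CD8 Treg than in CD4 Treg by 0.48 ± 0.11 (adjusted p = 0.0188), a fold of 1.39, and did not pass in CD8 Treg over CD49lo (0.34 ± 0.11, adjusted p = 0.136) or in CD4 Treg over CD49lo (-0.14 ± 0.09, adjusted p = 0.332). Jak3 (ENSMUSG00000031805, chromosome 8, 71676296 to 71690575), the kinase that binds the common gamma chain alone, was at 28.6 RPKM in CD8 Treg, 37.8 and 36.9 RPKM in CD4 Treg, and 28.8 and 26.8 RPKM in CD49lo. The CD8 Treg value lay inside the CD49lo range before the trimmed mean factors and above it with them. Both CD4 Treg values lay above the rest. Jak3 was higher in CD4 Treg than in CD49lo by 0.45 ± 0.12 (adjusted p = 0.0234), a call lost in each fit without 1 replicated library (adjusted p up to 0.165). In CD8 Treg it did not pass over CD49lo (0.18 ± 0.14, adjusted p = 0.571) or over CD4 Treg (-0.27 ± 0.14, adjusted p = 0.253). The call of Jak1 was likewise lost in each such fit (adjusted p up to 0.172). Insl3 lies within Jak3 on the same strand and was at most 4.16 RPKM, so reads of the shared 3′ part could fall to either gene.

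STAT5 transcripts were higher in CD4 Treg than in both CD8 populations. Stat5b (ENSMUSG00000020919, chromosome 11, 100780731 to 100850724) had 31.6 RPKM in CD8 Treg, 70.3 and 70.2 RPKM in CD4 Treg, and 39.1 and 33.3 RPKM in CD49lo. Stat5a (ENSMUSG00000004043, chromosome 11, 100859351 to 100885169) had 15.4 RPKM in CD8 Treg, 31.5 and 29.9 RPKM in CD4 Treg, and 19.0 and 14.8 RPKM in CD49lo. CD4 Treg stood above the other libraries for both genes. In RPKM before the trimmed mean factors, CD8 Treg was below both CD49lo libraries for Stat5b and between them for Stat5a. With the factors applied, CD8 Treg lay between them for both genes. Stat5b was higher in CD4 Treg than in CD49lo by 0.98 ± 0.12 (adjusted p = 0.000335) and Stat5a by 0.88 ± 0.16 (adjusted p = 0.00307). Relative to CD4 Treg, CD8 Treg fell by 1.03 ± 0.14 for Stat5b (adjusted p = 0.00126) and by 0.86 ± 0.19 for Stat5a (adjusted p = 0.0135). Over CD49lo, CD8 Treg did not pass for Stat5b (-0.06 ± 0.14, adjusted p = 0.881) or Stat5a (0.02 ± 0.19, adjusted p = 0.981). Without CD49lo replicate 2, Stat5b lost its call in CD4 Treg over CD49lo (adjusted p = 0.053); the call in CD8 Treg over CD4 Treg was lost when either CD49lo library was dropped, and both Stat5a calls in each fit without 1 library. Per length, Stat5b exceeded Stat5a in all 5 libraries, 2.05-fold in CD8 Treg, 2.23-fold and 2.34-fold in CD4 Treg, and 2.06-fold and 2.26-fold in CD49lo.

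Stat5a and Stat5b are close paralogs that lie 8626 bases apart, so reads may have been split between them. Of all 50-base windows along the longest coding transcript of the reference annotation (GENCODE M21), 15.8% of those in Stat5a also occurred in Stat5b and 11.8% of those in Stat5b in Stat5a. At 100 bases these shares were 6.99% for Stat5a and 5.18% for Stat5b. The levels of the 2 genes are therefore uncertain, by an amount that these shares do not give. The read length is not given in the sources used here.

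STAT4 and STAT3 moved in opposite directions between the 2 Treg populations. Stat4 (ENSMUSG00000062939, chromosome 1, 51987148 to 52107189), which carries IL-12 signals toward interferon-gamma, was at 48.3 RPKM in CD8 Treg, 27.5 and 26.3 RPKM in CD4 Treg, and 27.3 and 33.6 RPKM in CD49lo. CD8 Treg was above all other libraries, while CD4 Treg and CD49lo overlapped. Stat4 was higher in CD8 Treg than in CD4 Treg by 0.94 ± 0.17 (adjusted p = 0.00482) and than in CD49lo by 0.80 ± 0.17 (adjusted p = 0.0278). It did not pass in CD4 Treg over CD49lo (-0.14 ± 0.14, adjusted p = 0.517). Among the fits without 1 library, its call over CD4 Treg held only when CD4 Treg replicate 1 was left out. The Stat4 call over CD49lo ended without the scaling factor (0.66, adjusted p = 0.0556) and in each fit without 1 library (0.67 to 0.93). Stat3 (ENSMUSG00000004040, chromosome 11, 100885098 to 100939540), the factor of IL-6 and IL-10 signalling, was at 34.3 RPKM in CD8 Treg, 51.9 and 57.1 RPKM in CD4 Treg, and 40.6 and 39.3 RPKM in CD49lo. No 2 groups overlapped for Stat3. It fell in CD8 Treg relative to CD4 Treg by 0.55 ± 0.13 (adjusted p = 0.0178), was higher in CD4 Treg than in CD49lo by 0.47 ± 0.10 (adjusted p = 0.0111), and did not pass in CD8 Treg over CD49lo (-0.08 ± 0.13, adjusted p = 0.788). Both Stat3 calls were lost in each fit without 1 replicated library (adjusted p up to 0.146). The ratio of Stat3 to Stat4 RPKM was 0.712 in CD8 Treg, 1.89 and 2.17 in CD4 Treg, and 1.49 and 1.17 in CD49lo. Stat3 and Stat5a lie tail to tail on opposite strands and share 72 bases.

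Ranked by RPKM, which is per gene length, Jak1 led in all 3 groups and Cish and Socs2 came last in all 3. In CD8 Treg the order after Jak1 was Stat4, Socs3, Stat3, Stat5b, Jak3, Socs1 and Stat5a, with a single library and so no spread. In CD4 Treg it was Socs3, Stat5b, Socs1, Stat3, Jak3, Stat5a and Stat4, where the libraries of Stat5b and Socs1 overlapped and so did those of Stat4 and Cish. In CD49lo it was Stat3, Stat5b, Stat4, Jak3, Socs3, Stat5a and Socs1, where Stat5b overlapped Stat4, Stat4 overlapped Jak3, and Stat5a overlapped Socs1. Stat4 was thus the second most abundant of the 10 genes in CD8 Treg and Socs3 the second in CD4 Treg.

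Among the receptor chains that signal through JAK1 and JAK3, Il2rb and Il7r were high in CD8 Treg and Il2ra was low. Il2ra and Il2rb are also among the genes used here to check the sort, so their differences are not separate from it. Il2rb, the signalling chain shared by the IL-2 and IL-15 receptors, was at 302 RPKM in CD8 Treg, 267 and 277 RPKM in CD4 Treg, and 152 and 141 RPKM in CD49lo. It was higher in CD8 Treg than in CD49lo by 1.18 ± 0.12 (adjusted p = 0.00111), and did not pass in CD8 Treg over CD4 Treg (0.26 ± 0.12, adjusted p = 0.182). Calls in CD8 Treg over CD49lo, here and in the lists below, fall under the limit given above for all genes when a library is left out. Per 100 units of Il2rb RPKM, Cish stood at 0.162 in CD8 Treg, 10.5 and 8.50 in CD4 Treg, and 1.83 and 5.32 in CD49lo. Il2ra, the chain that gives the IL-2 receptor its high affinity, was at 1.30 RPKM in CD8 Treg, 142 and 154 RPKM in CD4 Treg, and 2.95 and 1.69 RPKM in CD49lo. It fell in CD8 Treg relative to CD4 Treg by 6.28 ± 0.27 (adjusted p = 2.05e-06) and did not pass in CD8 Treg over CD49lo (-0.51 ± 0.27, adjusted p = 0.353). Il2rg, the common gamma chain, was at 49.6 RPKM in CD8 Treg, 51.3 and 56.9 RPKM in CD4 Treg, and 41.2 and 46.0 RPKM in CD49lo, and passed in none of the 3 comparisons. Of the 8 receptor genes of this family, 3 were higher and 0 lower in CD8 Treg than in CD49lo (Il2rb, the IL-4 receptor chain Il4ra at 1.19 ± 0.12 and the IL-7 receptor chain Il7r at 1.11 ± 0.14). Il7r was at 133 RPKM in CD8 Treg, 45.1 and 52.9 RPKM in CD4 Treg, and 68.8 and 66.1 RPKM in CD49lo. In CD8 Treg over CD4 Treg 1 of the 8 was higher (Il7r, by 1.55 ± 0.14, adjusted p = 0.00012) and 3 were lower, and in CD4 Treg over CD49lo 4 were higher and 1 was lower. The median log2 fold change of the 8 was 0.37 in CD8 Treg over CD49lo, 0.03 in CD8 Treg over CD4 Treg and 0.65 in CD4 Treg over CD49lo. Over all genes 5.34%, 16.9% and 22.3% were called in these comparisons, in the same order.

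Other genes known as targets of STAT5 split in CD8 Treg. Of 15 listed, 3 were higher and 1 lower in CD8 Treg than in CD49lo, with a median log2 fold change of 0.08. Bcl2, which protects cells from death, was at 44.9 RPKM in CD8 Treg, 25.2 and 24.3 RPKM in CD4 Treg, and 14.6 and 15.4 RPKM in CD49lo (1.69 ± 0.13 over CD49lo, adjusted p = 0.000399). The survival kinase Pim2 was at 48.3 RPKM in CD8 Treg, 9.93 and 10.8 RPKM in CD4 Treg, and 25.0 and 19.6 RPKM in CD49lo (1.24 ± 0.23 over CD49lo, adjusted p = 0.0147). Myc, a driver of cell growth, was also higher than in CD49lo (1.23 ± 0.17, adjusted p = 0.00398), and Gzmb, a granule protease, was the 1 that was lower (-4.47 ± 0.45, adjusted p = 0.00106). Cish and Socs2 were at their lowest in that CD8 Treg library, and so were the listed targets Il2ra, Foxp3, Lta and Mcl1. Of all these, only Cish passed in CD8 Treg over CD49lo. The adjusted p there was 0.353 for Il2ra, 0.184 for Foxp3, 0.147 for Lta and 0.815 for Mcl1. In CD4 Treg over CD49lo, 8 of the 15 were higher and 4 lower, with Foxp3 (6.47 ± 0.26) and Il2ra (5.77 ± 0.22) the furthest up and Gzmb (-5.31 ± 0.36) and Prf1, which encodes perforin, (-3.34 ± 0.21) the furthest down (adjusted p at most 1.35e-05). The same list had 5 higher and 5 lower in CD8 Treg over CD4 Treg. Over all genes 5.34% were called in CD8 Treg against CD49lo, 16.9% in CD8 Treg against CD4 Treg and 22.3% in CD4 Treg against CD49lo. Foxp3 and Il2ra are also markers of CD4 Treg cells, so their calls go with the sort and are not separate evidence on STAT5.

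**Figure D4:**
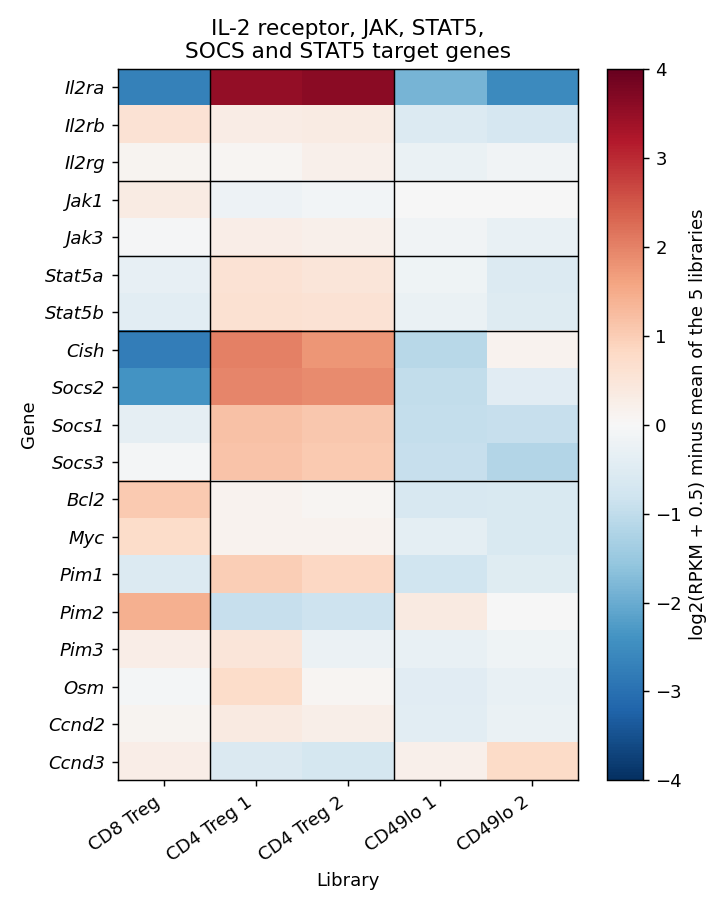
Colour shows log2(RPKM + 0.5) of each gene (rows) in each library (columns) minus the gene's mean over the 5 libraries; black lines part the receptor chains, JAKs, STAT5 genes, SOCS family genes and STAT5 targets. Cish, Socs2 and Il2ra are lowest in the CD8 Treg column, where Il2rb, Bcl2, Myc and Pim2 are highest. The target block draws only part of the 15 listed STAT5 targets. Of the listed targets not drawn, Foxp3, Lta and Mcl1 were also lowest in CD8 Treg, while Bcl2l1, Prf1 and Gzmb were not. In CD8 Treg over CD49lo, Il2ra, Foxp3, Lta and Mcl1 did not pass.

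Lists for the other STATs gave a mixed picture. All lists were chosen with earlier results of these data known. Over all genes 5.34% were called in CD8 Treg against CD49lo, 16.9% in CD8 Treg against CD4 Treg and 22.3% in CD4 Treg against CD49lo. Of 11 tested STAT3 targets, 9 were higher and 0 lower in CD4 Treg than in CD49lo (median log2 fold change 1.35). Among the higher were the transcription factor Maf at 3.16 ± 0.16 (adjusted p = 2.12e-06) and Hif1a, the oxygen-regulated factor, at 1.35 ± 0.11 (adjusted p = 3.93e-05). In CD8 Treg 0 were higher and 4 lower than in CD49lo (Rora, Maf, Hif1a and Prdm1), and 0 higher and 10 lower than in CD4 Treg. Of 10 STAT4 targets, 1 was higher and 0 lower in CD8 Treg than in CD49lo: Il18r1, a chain of the IL-18 receptor, at 59.9 RPKM in CD8 Treg, 16.5 and 16.2 RPKM in CD4 Treg, and 32.6 and 25.0 RPKM in CD49lo (1.19 ± 0.19 over CD49lo, adjusted p = 0.00707). Tbx21, which encodes the transcription factor T-bet, was at 64.3 RPKM in CD8 Treg, 2.20 and 1.99 RPKM in CD4 Treg, and 55.2 and 90.5 RPKM in CD49lo. In CD8 Treg over CD4 Treg 3 STAT4 targets were higher and 1 lower (median 1.64), and in CD4 Treg over CD49lo 1 was higher and 6 lower (median -1.38). Among the 12 receptor chains of the IL-6, IL-10, IL-12 and interferon families, the IL-6 receptor chain Il6ra was higher in CD8 Treg than in CD49lo (1.04 ± 0.22, adjusted p = 0.0264), along with Il10rb, while Il10ra (-0.93 ± 0.18, adjusted p = 0.0175) and the interferon-gamma receptor chain Ifngr2 (-1.11 ± 0.25, adjusted p = 0.0332) were lower. Of these 12, 1 was higher and 2 were lower in CD8 Treg over CD4 Treg, and in CD4 Treg over CD49lo 7 were higher and 2 lower.

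Of the 9 other SOCS, JAK and STAT genes, CD8 Treg had 0 above and 1 below CD49lo (median log2 fold change -0.19), and 0 above and 3 below CD4 Treg (-0.37). In CD4 Treg 3 were above and 0 below CD49lo (0.19). Over all genes 5.34%, 16.9% and 22.3% were called in these comparisons, in the same order. Stat6, the factor of IL-4 signalling, fell in CD8 Treg relative to CD4 Treg by 0.58 ± 0.14 (adjusted p = 0.0203). Of 14 interferon response genes, CD8 Treg had 0 above and 2 below CD49lo, and 0 above and 8 below CD4 Treg, while CD4 Treg had 8 above and 1 below CD49lo. The CD4 Treg replicates differed for some of these genes, such as Ifit1 at 54.4 and 23.7 RPKM. Others were close, such as Gbp3 at 117 and 124 RPKM. Of 12 other negative regulators of the pathway, 0 passed in CD8 Treg over CD49lo. In CD8 Treg over CD4 Treg the phosphatase gene Ptpn6, which encodes SHP-1, was higher (1.10 ± 0.13, adjusted p = 0.000494) and Usp18, which restrains interferon receptor signalling, was lower (-1.68 ± 0.34, adjusted p = 0.00853). The same 2 genes were called in CD4 Treg over CD49lo, Usp18 higher (2.33 ± 0.28, adjusted p = 0.000301) and Ptpn6 lower (-0.63 ± 0.11, adjusted p = 0.00239). The CD4 Treg replicates differed for Usp18, at 70.3 and 36.9 RPKM, against 9.26 and 10.6 RPKM in CD49lo.

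**Figure D5:**
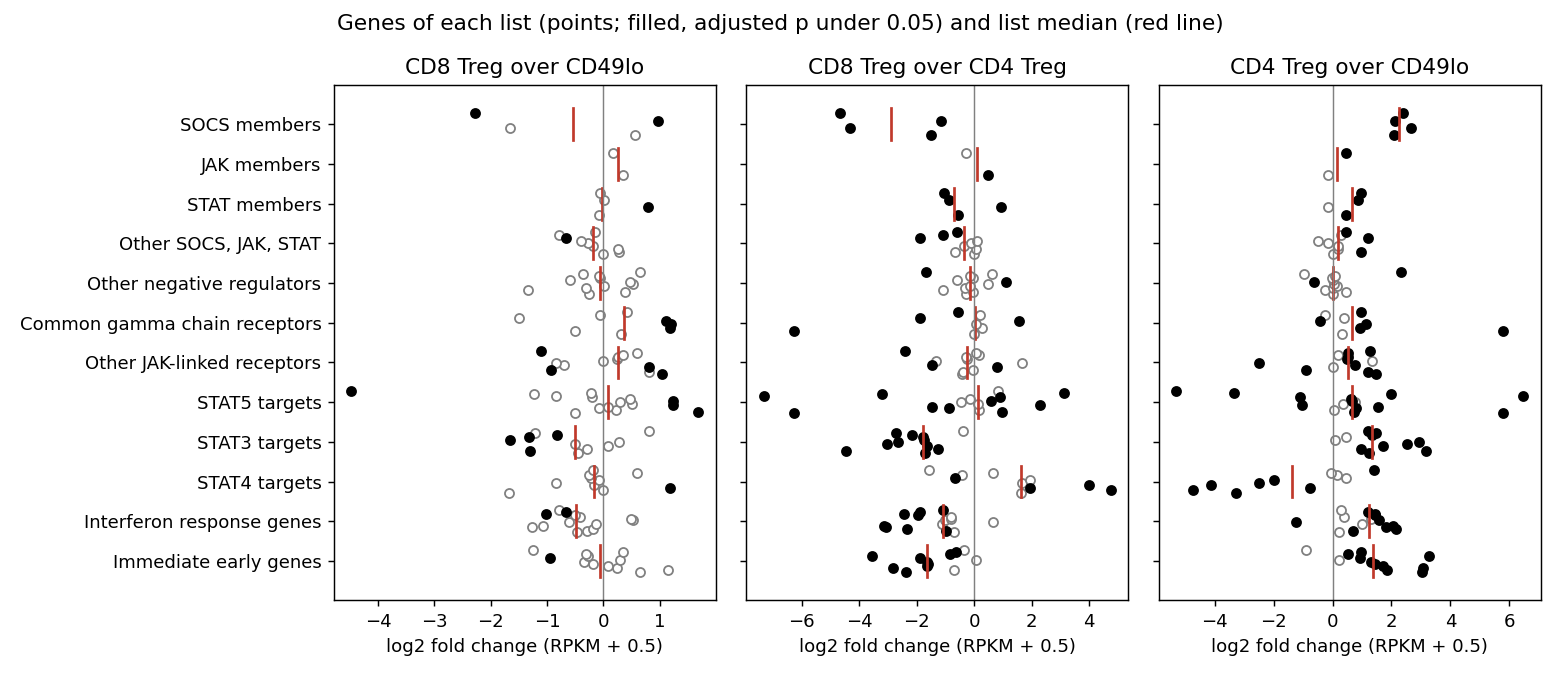
Log2 fold change (x axis, on RPKM + 0.5) of every tested gene of each list (points, filled where the adjusted p is under 0.05) with the list median (red line), in CD8 Treg over CD49lo, CD8 Treg over CD4 Treg and CD4 Treg over CD49lo. The SOCS members have medians of -0.54, -2.91 and 2.25 in the 3 panels from left to right, and the STAT4 targets run opposite to the STAT3 targets in the 2 panels with CD4 Treg.

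The genes with the most similar pattern were found by the Euclidean distance between log2(RPKM + 0.5) values of the 5 libraries, each gene centred on its own mean, among 8454 genes with a mean of at least 10 RPM (reads scaled to library depth). The gene nearest to Cish was Socs2, at a distance of 0.738, followed by Tnfsf11 at 0.761, where the median distance to Cish was 4.03. The nearest to Socs2 were Tnfsf11 (0.341) and Iigp1 (0.379). Tnfsf11, which encodes the cytokine RANKL, was at 0.295 RPKM in CD8 Treg, 15.7 and 19.5 RPKM in CD4 Treg, and 2.19 and 3.20 RPKM in CD49lo. The nearest to Socs1 were Rundc3a and Fam46c, and to Socs3 Ldlrad4 and Cnksr3. Rbm38 was nearest to Stat5b (0.0812) and lay at 0.122 from Stat5a. Abcb9 lay at 0.0915 from Jak1. The nearest patterns were Akap9 and Man1a to Jak3, Casd1 and Fam134a to Stat3, and Rps25 and Hdgfrp3 to Stat4. These are likenesses over 5 libraries and carry no test.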

How the data were processed

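RNA from 5 sorted T cell libraries was sequenced. CASAVA, STAR and mm10 are listed, with no versions, per the submitters' processing notes. The values deposited by the authors are RPKM, though the table is presented as counts: each value times gene length was a whole multiple of 1 step per library (100% within 0.02), which gave the reads behind it.

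RPKM were divided by trimmed mean of M values scaling factors (0.935 to 1.04) and 0.5 was added before log2. Kept genes had, in 1 library, at least what 10 reads are at median depth, and 15 reads in total. limma 3.58.1 (R 4.3.3) fitted 3 groups with 2 residual degrees of freedom and a variance prior that follows mean log2(RPM + 0.1). Two-sided p-values were adjusted (Benjamini-Hochberg) across the 13298 genes tested, and an adjusted p under 0.05 is a call. CD8 Treg, with 1 library, has no SD and takes its spread from the other groups. The fit was checked on simulated data.

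The 10 genes and the lists were chosen with earlier results of these data known. Named genes are the 10, the sort genes, up to 4 called genes per list and comparison by smallest p, and the 2 nearest patterns of each of the 10. Xist, Il2rg, genes overlapping the 10 and markers at 0 were named after their values were seen. The lists share Il2ra, Il2rb, Junb, Il6st, Il12rb2 and Foxp3, among others. Some genes that the rule names are not reported here. Alternatives covered pseudocounts, filters, scalings, priors, limma-voom, the groups fitted, a replicate block and leaving out libraries.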

Additional observations from a re-analysis of the deposited data

How the results depend on the processing

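Depth and replication limit these results: a count of 0 allows up to 0.359 to 0.551 RPM per library (3 reads, counting error only), and all CD8 Treg values rest on 1 library. Under the alternatives, 343 values of the 10 genes kept direction and side of the threshold, 81 lost the call, 3 gained it and 3 turned sign, for which the cause was not tested. In CD8 Treg over CD49lo, Stat5a turned sign without a scaling factor (log2 fold change -0.12) and ran from -0.18 (without CD49lo replicate 2) to 0.21 (without CD49lo replicate 1) in the fits without 1 library, and Stat5b ran there from -0.19 to 0.076 (without CD49lo replicate 1); none was called. Without a scaling factor the median of all genes in CD8 Treg over CD49lo was -0.16, against -0.04 with it.

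Without the filter on low values, 2 of the 10 were called in CD4 Treg against CD49lo, 0 in CD8 Treg against CD49lo (6 at an unadjusted p under 0.05) and 2 in CD8 Treg against CD4 Treg, and all-gene counts were 694 in the first and 1225 in the third, against 2962 and 2243. With the filter at 1 RPKM, CD8 Treg against CD49lo had 0 of the 10 (6 at an unadjusted p under 0.05 in limma; limma-voom with the original filter called 2) and 343 genes, and with a prior that follows mean log2 RPKM 1 and 365, against 3 and 710. With only the 2 groups compared, CD8 Treg against CD4 Treg had 1051 genes called. The share of calls that were higher in CD8 Treg than in CD49lo was 32.4%, but 85.8% without a filter, 51.0% with the 1 RPKM filter, 50.8% by limma-voom and 20.6% without a scaling factor; in CD8 Treg over CD4 Treg it was 50.5%, but 69.1% without a filter and 40.9% without a scaling factor.

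Without 1 library the calls ran from 434 to 1456 genes and 2 to 5 of the 10 in CD4 Treg against CD49lo, from 0 to 200 genes (2048 to 2226 at an unadjusted p under 0.05) and 0 of the 10 in CD8 Treg against CD49lo, and from 150 to 962 genes and 1 to 6 of the 10 in CD8 Treg against CD4 Treg. The lowest gene counts came without CD49lo replicate 1. The filter and factors were recomputed in these fits. Whether the replicate numbers of CD4 Treg and CD49lo pair the libraries is not known. The deviations of libraries with the same number had a correlation of -0.0202, but 1 correlation from so few libraries cannot settle it. With the replicate number as a block over these 4 libraries 3573 genes and 8 of the 10 were called. An offset of 0.5 RPM in the prior, chosen after seeing the data, called Socs2 in CD8 Treg against CD49lo (adjusted p = 0.0484).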
